A study of Mus musculus with 2 samples.

Results

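Tumour macrophages take on different activation states, and 8 genes are widely used to read them: Arg1, Nos2, Mrc1, Chil3, Retnla, Cd163, Trem2 and Lyve1. The 8 were chosen by name, with earlier results of these data known, out of 31053 genes in the count matrices. They were read in cells with at least 1 unique molecular identifier (UMI, 1 counted RNA molecule) of Tyrobp, the adaptor through which many myeloid receptors signal. B16F10 melanoma tumours had been grown in mice with an intact Atf4 gene (Atf4wt/wt, here WT) or with Atf4 deleted in the host (Atf4D/D, here KO), and dissociated for single-cell RNA sequencing. Each genotype had 1 library, made from 2 pooled small tumours of hosts aged 11 weeks, labelled as pooled male and female.

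Per the study's methods, both genotypes were C57BL/6 mice that carried a tamoxifen-inducible Cre recombinase (CreERT2) at Rosa26, and both received tamoxifen. The KO hosts alone carried loxP-flanked Atf4, so deletion reached host cells in general and not macrophages alone. The implanted melanoma cells kept their own Atf4. The genotypes could not be tested against each other, since each had 1 library, and every interval given is a 95% interval for counting error only.

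Arg1 and Nos2 compete for the same substrate. Arginase 1, the Arg1 product, splits arginine into ornithine and urea, whereas inducible nitric oxide synthase, the Nos2 product, turns arginine into nitric oxide. In textbook accounts Nos2 follows interferon gamma and bacterial products. Arg1, Mrc1 (the mannose receptor CD206), Chil3 (the chitinase-like protein Ym1) and Retnla (the secreted protein Fizz1) follow the type 2 cytokines interleukin 4 and interleukin 13, and Arg1 also follows hypoxia. Cd163, the scavenger receptor for haemoglobin bound to haptoglobin, and Lyve1, a hyaluronan receptor, mark macrophages resident beside vessels. Trem2 is a receptor for lipids and cell debris that signals through Tyrobp.

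The matrices held 6304 WT and 5474 KO barcodes with 38417113 and 38290024 UMIs. Filters on genes and mitochondrial RNA kept 3861 WT and 3557 KO cells. Of these, 1703 and 1185 had a Tyrobp UMI. Of the Tyrobp-positive cells, 170 WT and 146 KO held at least as many melanoma as myeloid marker UMIs and were left out. That left 1533 WT and 1039 KO Tyrobp-positive myeloid cells, with a median of 1740 and 1751 UMIs per cell. As a check of the labels, Atf4 made up 189 of every 1e6 UMIs (CPM) in WT myeloid cells against 35.0 in KO, and 227 against 211 in Tyrobp-negative melanoma-marked cells. The libraries shared 10 barcodes in all and 0 among these myeloid cells.

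Cells were further split by marker UMIs into ranges, which are not cell types. A C1q range (complement C1q genes, typical of mature macrophages) held 819 WT and 662 KO cells. A monocyte range held 323 and 151 cells, and 340 and 200 cells, called the rest, fell in no range. Between 0 and 31 cells per library fell in each of the granulocyte, dendritic and lymphoid ranges. Near the C1q limit lay 116 WT and 82 KO cells.

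The sexes were not matched between the libraries. No kept WT cell had a Y-linked UMI, although the library is labelled as pooled male and female. In the KO library 142 myeloid cells had Y-linked RNA but no Xist, 107 had Xist but no Y-linked RNA, 3 had both and 787 had neither. In WT, 987 had Xist. Cells with Xist and no Y-linked RNA were 64.4% of WT and 10.3% of KO myeloid cells. Xist measured 655 CPM in WT myeloid cells and 103 CPM in KO. The 142 and 107 cells thus do not give the sex mix of the KO library. If each tumour came from 1 sex, the 2 KO sets are 2 hosts, and sex, host and genotype cannot be told apart. The KO/WT ratios of the 8 genes are therefore also given, where UMIs allow, for KO cells with Xist and KO cells with Y-linked RNA, both against WT cells with Xist. Shares, pairs, partner genes and gene lists are given over all myeloid cells, in which the sexes were not matched between the libraries. Haemoglobin RNA also differed: Hbb-bs measured 943 CPM in WT myeloid cells against 0.461 in KO. Summed melanoma markers measured 1027 against 699 CPM and fibroblast markers 696 against 299. The part of these RNAs in the results was not tested.

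Of the 8 genes, 7 had at least 20 UMIs over both libraries. Of those 7, 4 were at least 2-fold higher in KO (Arg1, Chil3, Cd163 and Lyve1), against 2.67% of the 9711 genes with as many UMIs. Retnla alone was at least 2-fold lower, against 3.52% of genes. Mrc1 and Trem2 lay between. In the C1q range the same 4 genes were at least 2-fold higher (2.67% of 8947 genes) and none was 2-fold lower (2.95% of genes). The 8 genes were chosen with earlier results of these data known, so these shares only describe the libraries and give no probability. In these summed counts, fewer cells of a kind and less RNA per cell cannot be told apart.

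**Figure D1:**
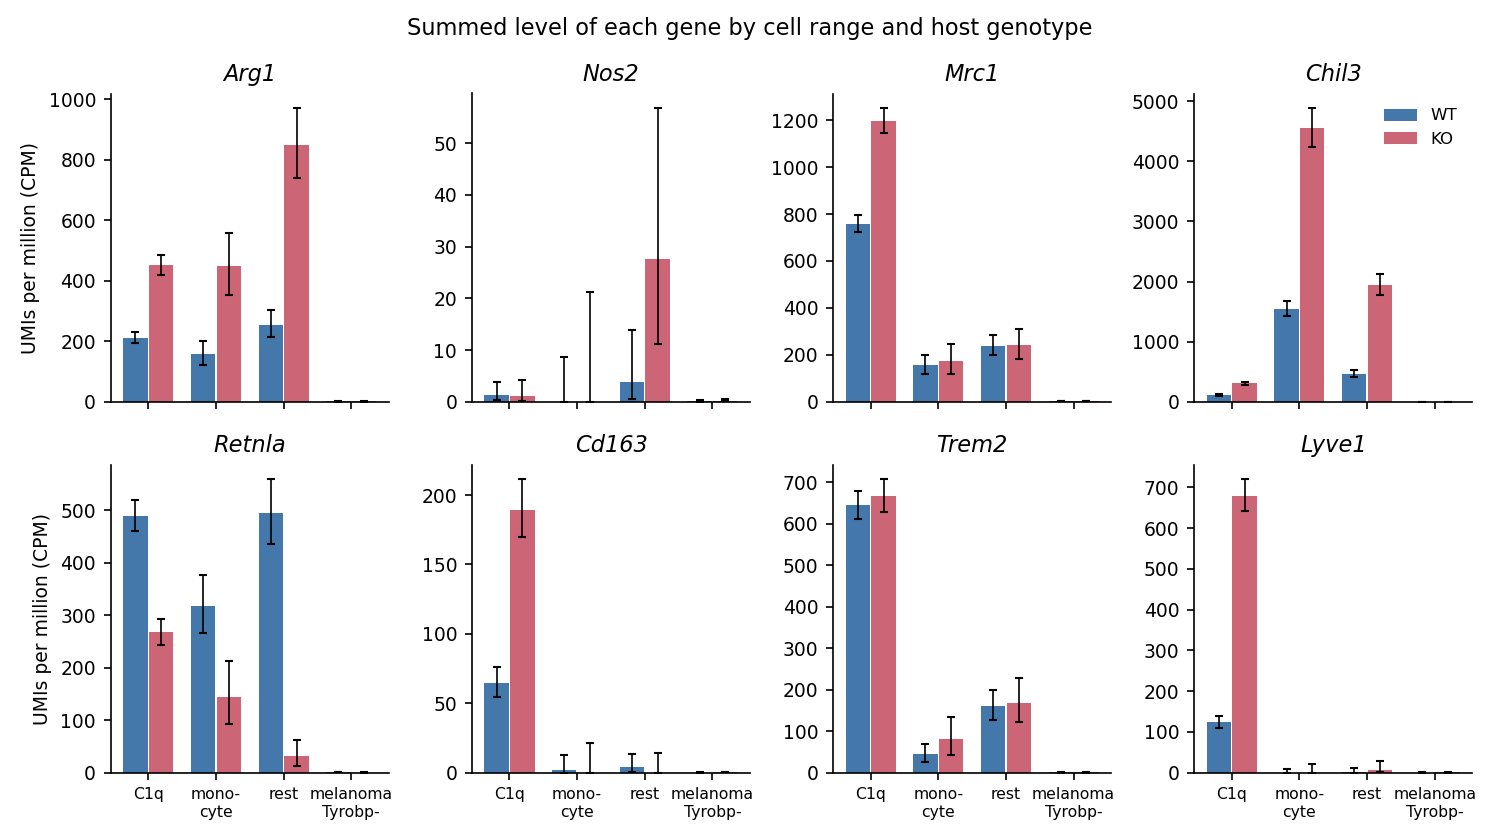
Level of each gene in CPM (UMIs of the gene per 1e6 UMIs of the same cells, linear axis from 0) in the C1q range, the monocyte range, the rest, and Tyrobp-negative melanoma-marked cells, for WT (blue) and KO (red). Bars are 1 library each and error bars are 95% Poisson intervals. Lyve1 and Cd163 stand almost wholly in the C1q range, Chil3 is highest in the monocyte range (1551 CPM in WT, 4555 CPM in KO), and no gene is above 3 CPM in the melanoma-marked cells.

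Arg1 (ENSMUSG00000019987, minus strand of GRCm38 chr10:24915221-24927484) had 680 UMIs in 146 WT cells and 1064 UMIs in 197 KO cells. Its level was 205 CPM in WT (190 to 221) and 490 CPM in KO (461 to 520). The log2 KO/WT ratio was 1.25 (1.11 to 1.40), a 2.39-fold difference. It was higher in KO within every range: 1.09 on the log2 scale in the C1q range, 1.51 in the monocyte range and 1.74 in the rest. Tyrobp-negative melanoma-marked cells held 1.21 CPM in WT and 1.19 CPM in KO.

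The difference in summed Arg1 level was not shared by the 2 KO sets. KO cells with Xist held 149 CPM from 42 UMIs, whereas KO cells with Y-linked RNA held 533 CPM from 197 UMIs, 1.84 higher on the log2 scale (1.35 to 2.36). Against the 191 CPM of WT cells with Xist, the log2 ratios were -0.36 (-0.85 to 0.10) and 1.48 (1.23 to 1.72). Within the C1q range the same contrast gave -0.32 (-0.85 to 0.17) and 1.44 (1.17 to 1.71). The summed Arg1 level was thus higher than in WT in the Y-linked set and was not in the Xist set, whose interval includes 0. As a share of cells, Arg1 was seen in 95 of 987 WT cells with Xist (9.63%). It was seen in 13 of 107 cells of the KO Xist set (12.1%, 6.63 to 19.9). In the Y-linked set it was seen in 32 of 142 cells (22.5%, 16.0 to 30.3), so the intervals of the 2 KO sets overlap. The C1q range held 68.2% of the Xist set and 71.8% of the Y-linked set, and summed hypoxia gene levels were 3273 and 3007 CPM.

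Nos2 (ENSMUSG00000020826, plus strand of chr11:78920787-78960254) was close to the limit of detection. It had 6 UMIs in 6 WT cells, 1.81 CPM (0.665 to 3.94), and 9 UMIs in 8 KO cells, 4.15 CPM (1.90 to 7.87). The log2 ratio of 1.19 had an interval from -0.46 to 2.97, so no difference was detectable over all myeloid cells at this depth. In the rest, 2 WT and 7 KO UMIs gave a log2 ratio of 2.84 (0.45 to 6.15). That interval lies above 0 but rests on very few UMIs. The monocyte range had 0 Nos2 UMIs in either library. Of the 6 WT cells with Nos2, 5 also had Arg1, where 0.571 cells were expected from the 2 shares alone. In KO, 3 of 8 did, where 1.52 were expected. Arg1 UMIs thus outnumbered Nos2 UMIs in both libraries, by 680 to 6 and 1064 to 9. In 3' counts of this kind a UMI is counted once per molecule whatever the gene's length.

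Mrc1 (ENSMUSG00000026712, plus strand of chr2:14229392-14332057) was the most widely seen of the 8. It had 1915 UMIs in 688 WT cells and 2136 UMIs in 551 KO cells. Its level was 578 CPM in WT and 984 CPM in KO, a log2 ratio of 0.77 (0.68 to 0.86). The C1q range gave 0.66 (0.56 to 0.75). In the monocyte range and the rest the intervals included 0, with ratios of 0.15 (-0.52 to 0.80) and 0.00 (-0.46 to 0.46). The Xist and Y-linked KO sets gave 0.99 and 0.70. Without cells that held Lyve1 or Cd163, the C1q ratio was 0.26 (0.12 to 0.40).

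Chil3 (ENSMUSG00000040809, minus strand of chr3:106147554-106167564) was the one gene of the 8 highest in the monocyte range. There its level was 1551 CPM in WT and 4555 CPM in KO, against 113 and 306 CPM in the C1q range. Over all myeloid cells it had 1161 UMIs in 399 WT cells and 1826 UMIs in 357 KO cells, or 351 and 841 CPM. The log2 ratio was 1.26 (1.16 to 1.37) in all and 1.55 (1.40 to 1.71) in the monocyte range. The Xist and Y-linked KO sets were at 1440 and 560 CPM, both above the 259 CPM of WT cells with Xist, with log2 ratios of 2.47 (2.29 to 2.66) and 1.11 (0.88 to 1.34). Summed granulocyte marker UMIs were 54 in WT and 1104 in KO, and 2 KO cells with Chil3 lay in the granulocyte range.

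Retnla (ENSMUSG00000061100, plus strand of chr16:48842551-48844461) was the one gene lower in KO. It had 1498 UMIs in 103 WT cells and 489 UMIs in 55 KO cells, or 452 and 225 CPM. The log2 ratio was -1.01 (-1.16 to -0.86), which is 2.01-fold higher in WT. It was -0.87 in the C1q range, -1.14 in the monocyte range and -3.97 (-5.20 to -2.97) in the rest. Cells with Retnla numbered 13 in WT and 2 in KO in the monocyte range, and 19 and 2 in the rest. The ratios there rest on those few cells, and the intervals do not carry the spread between cells. The Xist and Y-linked KO sets gave -1.90 (-2.39 to -1.45) and -0.75 (-1.04 to -0.48).

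Few cells carried most of the Retnla RNA. In WT the highest cell held 111 UMIs, 12 cells held 50% of the total, and the 39 cells with at least 10 UMIs held 87.5%. In KO the highest cell held 101 UMIs and 5 cells held 54.8% of the total. Without the 5 highest cells of each library the log2 ratio was -1.69. Of the other genes with at least 20 UMIs, each needed more cells to reach that share: 50% of the Arg1 UMIs lay in 21 WT and 37 KO cells, and 50% of the Mrc1 UMIs in 159 and 122.

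**Figure D2:**
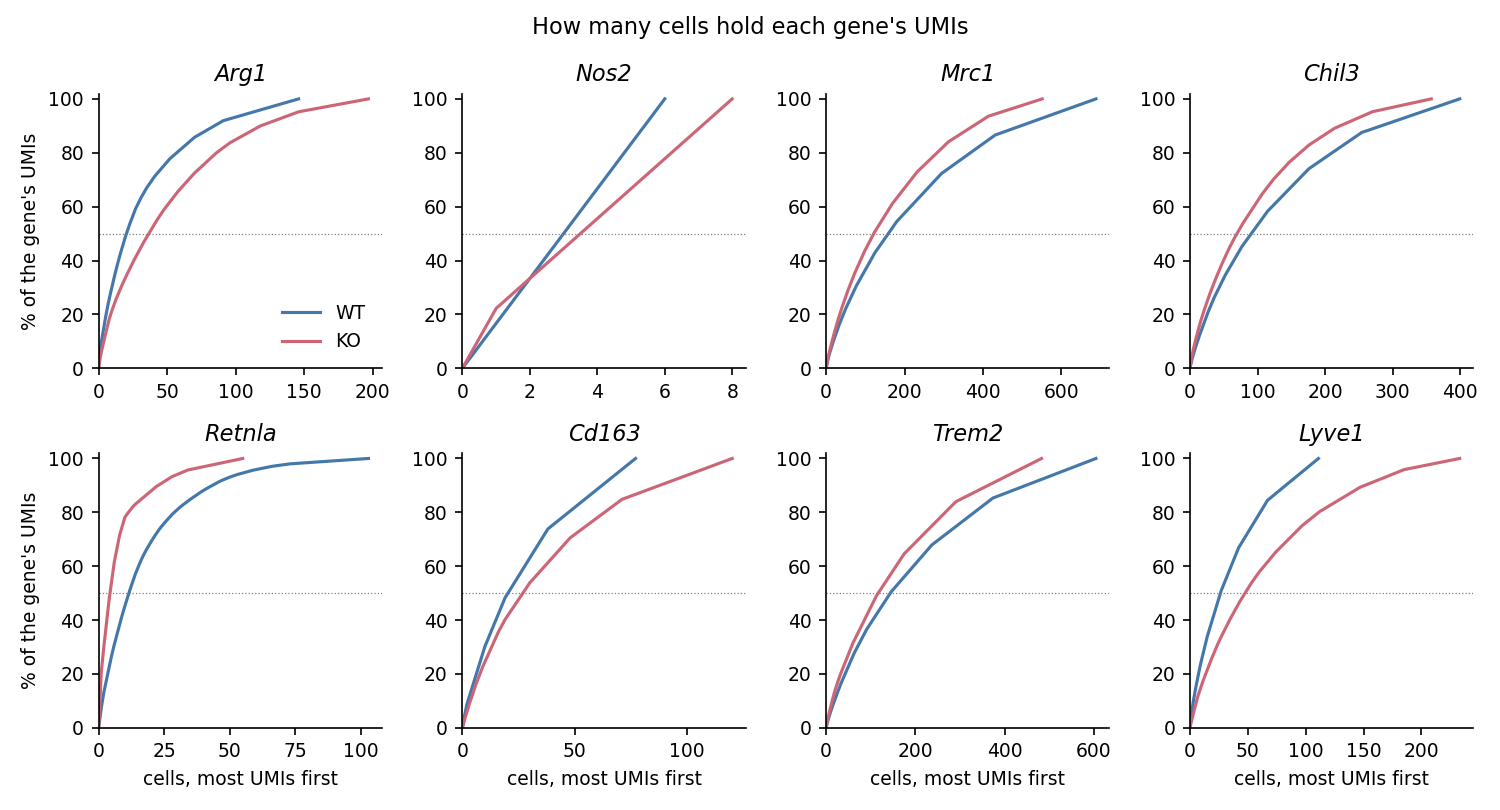
Cumulative percent of each gene's UMIs (vertical axis, linear) against the number of Tyrobp-positive myeloid cells, ordered from the most UMIs to the fewest (horizontal axis), for WT (blue) and KO (red). Only cells with the gene are drawn, and the dotted line marks 50%. Retnla reaches that line within 12 WT and 5 KO cells, Mrc1 within 159 and 122.

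The promoter window of RefSeq (250 bases before to 50 after the start, GRCm38.p6) was given for 5 of the 8 genes: Mrc1, Chil3, Retnla, Cd163 and Trem2. The type 2 cytokines act through the factor STAT6, which binds palindromes of the TTCNNNNGAA form. The 2 sequences shown, of Chil3 and Retnla, are those of the 5 with a match to either STAT form below. Mrc1, also classed with the type 2 genes, had none. Whether a match bears on the cells in which a gene was read was not tested. Both strands were searched. The 4-base spacer form was found in Retnla alone of the 5, and in 6.95% of all 32851 windows. The 3-base form, TTCNNNGAA, which other STAT factors prefer, was found in Chil3 alone and in 8.30% of windows. TGATGNAA, a form of the ATF4 and C/EBP composite element, was in none of the 5 and in 3.97% of windows. Capitals mark the matched letters, and a match is a description of the letters only.
Retnla (plus strand, chr16:48842454-48842483): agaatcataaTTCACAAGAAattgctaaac
Chil3 (minus strand, chr3:106167718-106167746): aaatacccacTTCTTAGAAacatagctat
The Retnla match begins 145 bases before its RefSeq start and the Chil3 match 172 bases before its own. For Retnla the RefSeq start lies downstream of the GENCODE gene start given above.

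Cd163 and Lyve1 were nearly confined to the C1q range in these libraries. Of cells with Lyve1, 110 of 111 in WT and 231 of 233 in KO lay there, and of cells with Cd163, 74 of 77 and 120 of 120. Lyve1 (ENSMUSG00000030787, minus strand of chr7:110850607-110863239) had 283 UMIs in WT and 1160 UMIs in KO, or 85.5 and 534 CPM. Its log2 ratio of 2.64 (2.46 to 2.84), or 6.25-fold, was above that of each of the other 6 measured genes. Within the C1q range it was 2.45 (2.26 to 2.64).

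Cd163 (ENSMUSG00000008845, plus strand of chr6:124304656-124330527) had 149 UMIs in 77 WT cells and 323 UMIs in 120 KO cells. The log2 ratio of CPM was 1.73 (1.44 to 2.02), or 3.31-fold, and 1.55 (1.27 to 1.84) in the C1q range. Both KO sets were above WT for both genes. Lyve1 gave log2 ratios of 2.88 and 3.03 in the Xist and Y-linked sets, and Cd163 gave 1.71 and 2.46. Cells with either gene made up 9.46% of WT (8.04 to 11.0) and 26.0% of KO myeloid cells (23.3 to 28.8). They were 35.5% of the Xist set and 41.5% of the Y-linked set. The median UMI count of such cells was 3028 in WT and 3128.5 in KO.

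Trem2 (ENSMUSG00000023992, plus strand of chr17:48346401-48354147) differed least. It had 1573 UMIs in 605 WT cells and 1198 UMIs in 483 KO cells, or 475 and 552 CPM. The log2 ratio was 0.22 (0.11 to 0.33) over all myeloid cells. In the C1q range, which held 530 of the 605 WT and 439 of the 483 KO cells with Trem2, it was 0.05 (-0.06 to 0.16). That interval leaves room for at most a 1.12-fold higher level in KO from counting error. The Xist and Y-linked sets gave 0.12 (-0.12 to 0.36) and 0.19 (-0.02 to 0.40).

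**Figure D3:**
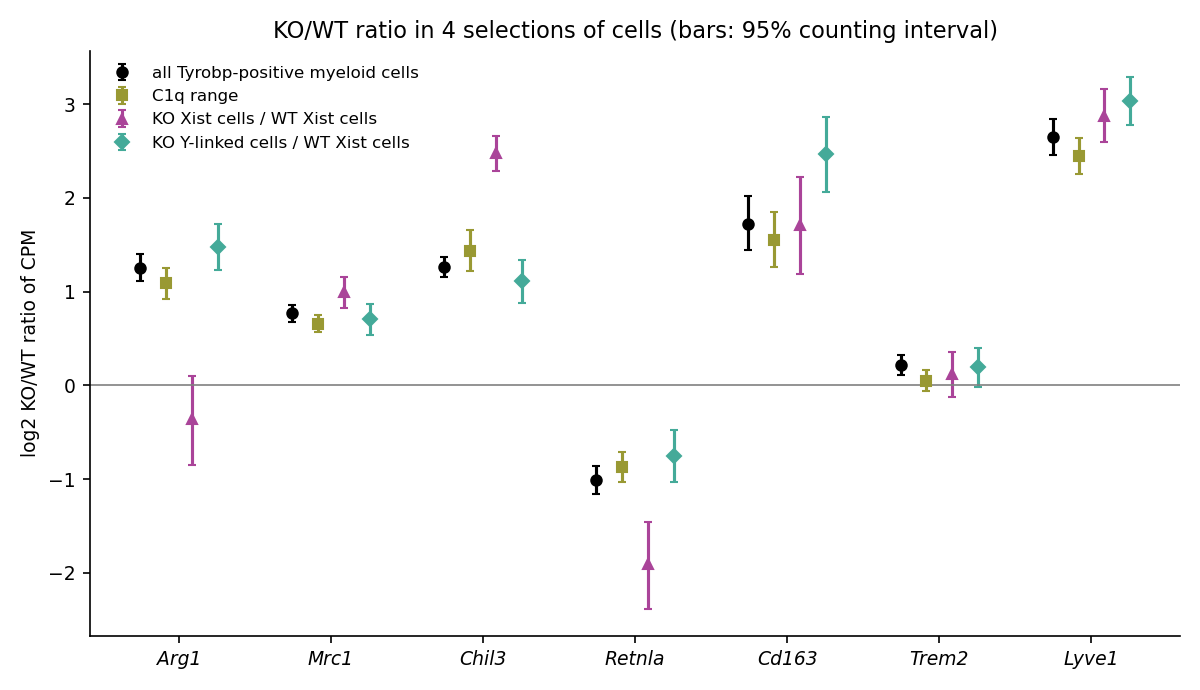
The log2 KO/WT ratio of CPM for 7 genes (Nos2 is left out, with 6 and 9 UMIs), in all Tyrobp-positive myeloid cells, in the C1q range, and in KO cells with Xist or with Y-linked RNA against WT cells with Xist. Bars are 95% counting intervals and the grey line marks no difference. Lyve1, Cd163, Chil3 and Mrc1 lie above the line in all 4 selections and Retnla below it, whereas Arg1 lies at -0.36 in the Xist selection and at 1.48 in the Y-linked selection. The Retnla points of the KO Xist and Y-linked sets rest on 7 and 8 KO cells with Retnla.

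Shares of cells were compared after each cell was thinned to 2000 UMIs, which 645 WT and 440 KO cells reached. Of those, 535 WT and 413 KO cells lay in the C1q range, which held 53.4% and 63.7% of all myeloid cells. Shares, combinations and pairs at 2000 UMIs thus describe mainly that range. At that depth Mrc1 was seen in 67.1% of WT and 80.9% of KO cells, and Trem2 in 60.5% and 68.6%. Lyve1 was seen in 12.7% (10.2 to 15.5) and 41.1% (36.5 to 45.9), and Cd163 in 6.98% and 17.7%. Arg1 was seen in 68 WT (8.28% to 13.2%) and 66 KO cells (11.8% to 18.7%), and Chil3 in 61 (7.31% to 12.0%) and 63 (11.2% to 17.9%). Retnla was seen in 76 WT (9.40% to 14.5%) and 33 KO cells (5.22% to 10.4%). The WT and KO intervals at 2000 UMIs were separate for Mrc1, Cd163 and Lyve1 and overlapped for Arg1, Nos2, Chil3, Retnla and Trem2. At 1000 UMIs, which 1319 WT and 868 KO cells reached, Arg1 was seen in 7.66% (6.28 to 9.23) and 17.6% (15.1 to 20.3), and Chil3 in 19.2% (17.1 to 21.4) and 27.1% (24.1 to 30.2), without overlap. Trem2 was then at 28.1% (25.6 to 30.6) and 34.0% (30.8 to 37.2), also without overlap, and the Retnla and Nos2 intervals still overlapped. Unthinned shares over all myeloid cells were 44.9% and 53.0% for Mrc1, 7.24% and 22.4% for Lyve1, 9.52% and 18.96% for Arg1, and 26.0% and 34.4% for Chil3. They were lower than at 2000 UMIs for Mrc1 and Lyve1, and higher for Chil3 in both libraries and for Arg1 in KO. In melanoma-marked cells at the same depth no gene exceeded 0.669%. Those cells had a median of 11383 UMIs in WT and 10684 in KO before thinning.

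**Figure D4:**
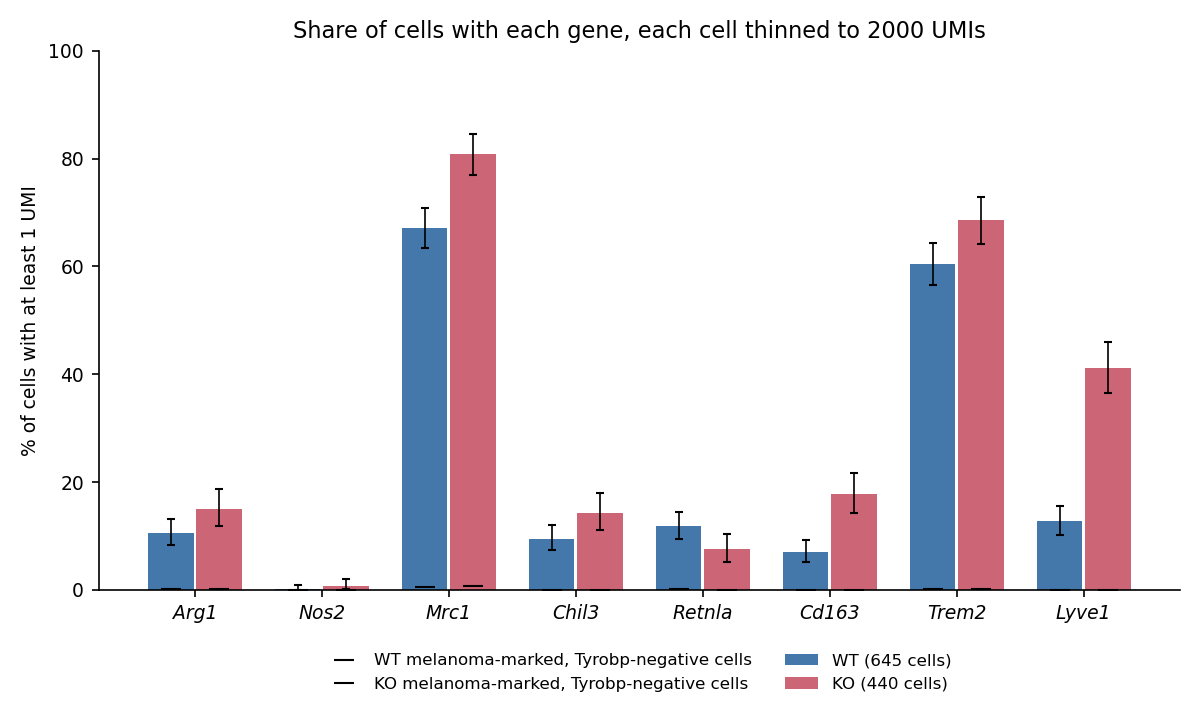
Percent of Tyrobp-positive myeloid cells with at least 1 UMI of each gene after thinning every cell to 2000 UMIs (645 WT cells in blue, 440 KO cells in red). Error bars are exact 95% binomial intervals, and short black lines give the share in Tyrobp-negative melanoma-marked cells. Lyve1 shows the widest gap, 12.7% against 41.1%.

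The next question was which of the genes occurred in the same cells. Of 645 WT cells 62.3% (58.5 to 66.1) held 2 or more of the 8 genes, and of 440 KO cells 80.2% (76.2 to 83.8). In the C1q range alone, at 2000 UMIs, these shares were 68.6% (64.5 to 72.5) and 83.1% (79.1 to 86.5). Of the same 645 and 440 cells, 10.2% and 3.86% held none. Cells with 4 genes made up 4.34% and 11.8%, and 4 WT and 21 KO cells held 5 or more. The most common combination in both libraries was Mrc1 with Trem2, in 174 WT (27.0%) and 85 KO cells (19.3%). Mrc1 with Trem2 and Lyve1 was found in 27 WT (4.19%) and 65 KO cells (14.8%). The mannose receptor and the lipid receptor were thus often read in the same cell, though about as often as their shares predict: 281 WT cells where 262 were expected, and 252 KO cells where 244 were.

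Co-occurrence was measured as the number of cells with both genes over the number expected from the 2 shares. Of 28 pairs, 21 had at least 3 cells expected in each library, and the other 7 all involved Nos2. Above 1.5 times the expectation in both libraries were 3 pairs, and below the expectation divided by 1.5 were 2 pairs. The remaining 16 pairs lay in between, 6 of them on opposite sides of 1 in the libraries.

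Cd163 and Lyve1 were 1 of the 3 pairs above expectation, and had the highest ratio of the 21 pairs in WT though not in KO. In WT 28 cells had both where 5.72 were expected, a ratio of 4.89 (3.25 to 7.07), and in KO 55 cells where 32.1 were expected, a ratio of 1.71 (1.29 to 2.23). Of cells with Cd163, 62.2% in WT and 70.5% in KO also had Lyve1. Retnla and Cd163 gave ratios of 1.51 (0.651 to 2.97) and 2.22 (1.18 to 3.80). Arg1 and Retnla gave 1.997 (1.14 to 3.24) and 1.82 (0.831 to 3.45), with 16 WT and 9 KO cells. For those last 2 pairs the interval includes 1 in one of the libraries.

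Chil3 was kept apart from Retnla and from Lyve1. No WT cell at 2000 UMIs had both Chil3 and Retnla where 7.19 were expected, and 1 KO cell did where 4.72 were expected. Without thinning the gap was wider: 0 of 1533 WT cells had both, although 399 had Chil3 and 103 had Retnla (26.8 expected), and 3 KO cells had both (18.9 expected). The same held inside the C1q range, with 0 WT cells (4.36 expected) and 1 KO cell (4.11 expected). Chil3 with Lyve1 gave 1 WT cell where 7.76 were expected and 8 KO cells where 25.9 were expected, ratios of 0.129 (0.00326 to 0.718) and 0.309 (0.133 to 0.608). Chil3 and Retnla are both classed as type 2 response genes, yet in these tumours they were read in different cells. Cells with Chil3 were shallow, with a median of 1276 UMIs in WT and 1284 in KO, so most of them were lost at 2000 UMIs.

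Arg1 and Lyve1 differed in direction. In WT 3 cells had both where 8.64 were expected, a ratio of 0.347 (0.0716 to 1.01). In KO 35 cells had both where 27.1 were expected, a ratio of 1.29 (0.898 to 1.79). Both intervals include 1, and the pair was 1 of the 6 on opposite sides of 1. Measured as levels over all myeloid cells, Lyve1 was at 32.1 CPM in WT cells with Arg1 and 91.6 CPM in those without it, a log2 difference of -1.52 (-2.53 to -0.65). In KO it was at 834 and 461 CPM, a log2 difference of 0.86 (0.67 to 1.04). Whether this change of sign goes with genotype or with host was not tested.

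**Figure D5:**
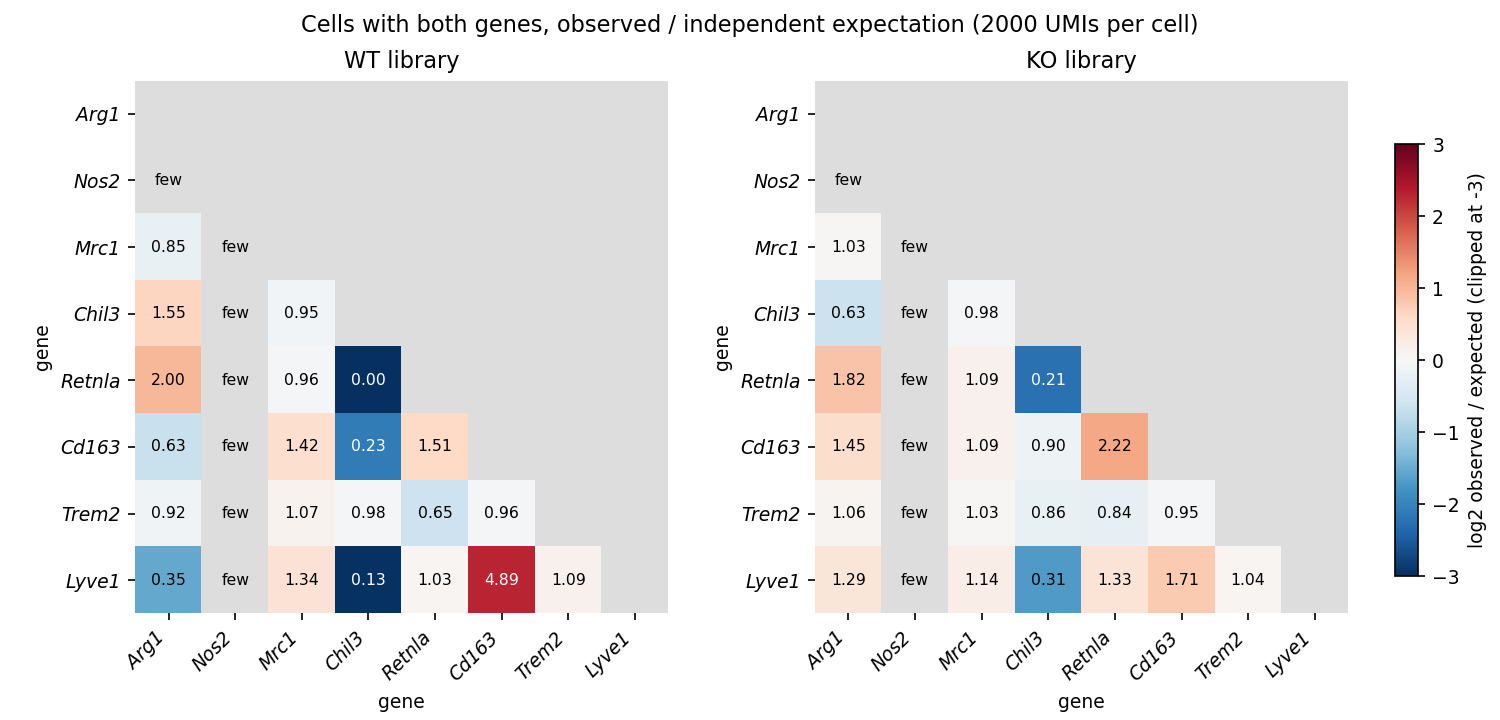
Number of cells with both genes of a pair divided by the number expected from the 2 shares, at 2000 UMIs per cell, for WT (left) and KO (right). Red is above and blue below expectation on a log2 colour scale clipped at -3, and pairs with under 3 cells expected are marked "few". Cd163 with Lyve1 stands at 4.89 and 1.71, Chil3 with Retnla at 0 and 0.21.

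For each gene with at least 50 positive cells in both libraries, 2904 genes with at least 100 UMIs in each library were ranked by their level in positive over negative cells. The lower of the 2 libraries' ratios was used. Deeper cells are more likely to show a UMI of any gene, so the folds also carry a difference in cell kind and depth, and they are descriptions. Arg1-positive cells were led by Mmp12, macrophage elastase, at 7.01-fold in WT and 3.86-fold in KO. Next came Vegfa, the vascular growth factor, at 3.77-fold and 3.12-fold, Ankrd37 at 4.10-fold and 3.07-fold, and Bnip3, a mitophagy receptor, at 4.89-fold and 2.89-fold. Vegfa, Ankrd37 and Bnip3 are known targets of hypoxia-inducible factor. Within the C1q range the 4 folds lay between 2.44 and 5.84.

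Lyve1, Cd163 and Mrc1 shared their leading gene. Cd209f, a C-type lectin of the DC-SIGN family, was 69.2-fold higher in WT and 70.6-fold higher in KO cells with Lyve1, 25.3-fold and 6.41-fold higher with Cd163, and 22.4-fold and 21.1-fold higher with Mrc1. Cells with Lyve1 were also high in Ednrb, the endothelin receptor type B (12.1-fold and 12.8-fold), Fcna, ficolin A (12.0-fold and 17.4-fold), and Ltc4s, leukotriene C4 synthase (11.6-fold and 15.9-fold). Cd163 was followed by Marco, a scavenger receptor (4.70-fold and 4.98-fold), Lyve1, and Pros1, protein S (3.63-fold and 3.57-fold). Mrc1 was followed by Lyve1, Cd163 and Npl, a sialic acid lyase (10.9-fold and 11.9-fold).

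Chil3-positive cells were led by Hp, haptoglobin (7.76-fold in WT and 9.80-fold in KO), Vcan, the proteoglycan versican (5.67-fold and 6.30-fold), Ly6c2, an antigen of inflammatory monocytes (5.45-fold and 8.63-fold), and Slpi, a protease inhibitor (4.21-fold and 4.23-fold). Retnla-positive cells were led by Lyz1, a lysozyme gene (12.1-fold and 8.06-fold). Lyz1 has a near-identical neighbour, Lyz2, so its counts are uncertain. Ltc4s (3.99-fold and 3.62-fold), Cysltr1, a leukotriene receptor (2.88-fold and 2.96-fold), and Cd209f (3.50-fold and 2.85-fold) followed. Trem2-positive cells were led by Slc27a1, a fatty acid transporter (4.79-fold and 6.07-fold), Igf1, insulin-like growth factor (4.64-fold and 5.77-fold), Atp6v0d2, a subunit of the vacuolar proton pump (4.40-fold and 6.95-fold), and Marco (7.98-fold and 3.76-fold). The Trem2 folds were smaller within the C1q range, between 1.94 and 3.93. Cd209f was also less raised there: 11.0-fold in WT and 9.97-fold in KO with Mrc1, 17.2-fold and 4.73-fold with Cd163, and 47.8-fold and 47.6-fold with Lyve1. For Chil3 the folds moved both ways there. Slpi stood at 1.69-fold in WT and 4.03-fold in KO, and Hp at 4.34-fold and 16.8-fold.

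Gene lists for the surrounding pathways were counted in the same way over all myeloid cells, where the median log2 KO/WT ratio of the 9711 genes was -0.02. Of those genes 10.4% (1008) had an interval above 0 and 12% (1170) below, and 2.67% were at least 2-fold higher in KO and 3.52% lower, the shares against which each list is read. The lists were chosen with earlier results of these data known, so the counts are descriptions and give no probability. Of 13 resident and perivascular macrophage genes, 11 had an interval above 0 and none below, and 8 were at least 2-fold higher in KO, with a median of 1.14. Pf4, a platelet-type chemokine made by these cells, was at 2118 CPM (WT) and 2973 CPM (KO). Ccl8, a monocyte chemokine, was at 1484 and 3797 CPM, and Selenop, the selenium carrier, at 924 and 2033 CPM. The median within the C1q range was 1.02.

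Of 14 hypoxia and glycolysis genes, 12 had an interval above 0 (10.4% of all genes), none below and 3 were at least 2-fold higher (2.67%), with a median of 0.67. Ldha, lactate dehydrogenase A, was at 1063 and 1183 CPM, and Pgk1, phosphoglycerate kinase, at 647 and 837 CPM. Of 13 genes that accompany Trem2 in lipid-laden macrophages, 9 had an interval below 0 (12% of all genes) and 3 above (10.4%), with a median of -0.34. Of these 13 genes, 3 were at least 2-fold lower (3.52%) and none 2-fold higher. Lgals3, galectin 3, was at 4960 CPM (WT) and 4392 CPM (KO). Lpl, lipoprotein lipase, was at 894 and 299 CPM, and Spp1, osteopontin, at 2194 and 1433 CPM, whereas Apoe, apolipoprotein E, was at 5161 and 7498 CPM. Trem2 itself differed by 0.22 on the log2 scale.

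Of 14 measured type 2 response genes, 7 had an interval above 0 and 3 below (10.4% and 12% of all genes), with a median of 0.38; 3 were at least 2-fold higher and 2 lower. Il4ra, the interleukin 4 receptor alpha chain, was at 58.3 CPM (WT) and 174 CPM (KO), and Ccl24, an eosinophil chemokine, at 101 and 261 CPM. Mgl2, a galactose-binding lectin, was at 65.8 and 21.6 CPM. Of 15 type 1 response genes, 3 had an interval above 0 and 4 below, with a median of -0.01, and 2 were at least 2-fold lower. The C1q range turned that balance: of 13 type 1 genes measured there, 4 had an interval above 0 and 1 below (9.58% and 10.5% of 8947 genes), with a median of 0.14. Over all myeloid cells Il1b was at 960 CPM (WT) and 987 CPM (KO), and Tnf at 191 and 261 CPM.

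Of 9 genes of arginine and nitric oxide metabolism, 1 had an interval above 0 (Slc7a2, an arginine transporter, at 5.74 and 13.4 CPM) and 2 below (Odc1, ornithine decarboxylase, at 272 and 228 CPM, and Sms, spermine synthase, at 77.6 and 62.2 CPM), with a median of 0.02. Of 14 receptors for cytokines and ligands that act on Arg1 or Nos2, 2 had an interval above 0 and 2 below, near the shares of 10.4% and 12% over all genes, with a median of 0.13. Of 11 genes of Trem2 and Tyrobp signalling, 2 had an interval above and 2 below, with a median of 0.03. Of 10 scavenger and phagocytic genes measured, 6 had an interval above and 1 below, with a median of 0.29.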

How the data were processed

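The deposited values are raw UMI counts for each barcode and gene, not normalised, which the authors made with Cell Ranger 3.1.0 on GRCm38. Seurat 3.2.1 is also named in the submitters' processing notes. Sources differ on the chemistry version of the 10x 3' kit. Gene positions are from GENCODE M21. Filters kept barcodes of 200 to 5000 genes whose mitochondrial share was 7.5% or less. Myeloid cells had at least 1 Tyrobp UMI and more myeloid than melanoma marker UMIs. The C1q range needed at least 3 C1q UMIs and at least 10 per 10000 UMIs, the monocyte range at least 3 monocyte marker UMIs. The melanoma-marked cells had no Tyrobp UMI, at least 10 melanoma marker UMIs and more melanoma than myeloid marker UMIs. Doublets were not removed in the values reported.

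Counts were summed over cells and divided by those cells' UMIs (CPM). Intervals are exact: Poisson for a level, Clopper-Pearson for a share, conditional binomial for a KO/WT ratio, and Poisson on the observed cells for a pair. A count of 0 allows 3. Thinning drew 2000 UMIs per cell without replacement, and each cell's draw was kept the same in every range. List genes needed 20 UMIs over both libraries. Named genes are the 8, the 4 genes with the highest ratio in positive over negative cells for each member but Nos2, and list members with the most UMIs. Hbb-bs, Spp1, Lpl, Mgl2 and Slc7a2 fall outside this rule and were named after their values were seen. Il4ra falls outside it too, since Clec10a of the same list had more UMIs in both libraries. The members and lists were chosen with earlier results of these data known. Code was tested on simulated data. Python 3.11.15, numpy 2.4.6, scipy 1.17.1 and pandas 2.3.3 were used. Scrublet in scanpy 1.11.5 called 2.85% of kept WT and 1.83% of kept KO cells doublets, for the alternative without them.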

Additional observations from a re-analysis of the deposited data

Results flagged for a closer look

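The difference in summed Arg1 level had opposite signs in the KO sets with Xist and with Y-linked RNA. Against WT cells with Xist, the log2 ratio was -0.36 in KO cells with Xist and 1.48 in KO cells with Y-linked RNA. The share of cells with Arg1 did not show this: it was 12.1% and 22.5% in these sets, against 9.63% in WT cells with Xist. Each library is 1 sample, so the difference between the sets was not tested over samples, and the interval of the first ratio (-0.85 to 0.10) includes 0. Sex, host and tumour cannot be told apart in these sets.

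Most Nos2 RNA lay outside the Tyrobp-positive myeloid cells, in cells the comparisons do not use. Those myeloid cells held 33.3% of the Nos2 UMIs of kept WT cells and 25.0% of those of kept KO cells. Tyrobp-negative cells with fibroblast markers held 5.46 CPM in WT (1.77 to 12.7; 5 UMIs in 3 of 202 cells) and 19.5 CPM in KO (11.9 to 30.1; 20 UMIs in 16 of 239 cells). Tyrobp-negative cells with endothelial markers held 26.4 CPM in WT (9.69 to 57.5; 6 UMIs in 6 of 59 cells), and 0 UMIs were seen in the 22 such KO cells.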

How the results depend on the processing

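No paired analysis was possible because only 1 library stood for WT and 1 for KO. Of 97 alternative values of the KO/WT log2 ratios, 70 stayed within the counting interval of the reported ratio and 1 reversed. The other 26 lay outside that interval with the same sign, some smaller in size than the reported ratio and some larger. The reversal was Arg1 in cells with Xist, at -0.36. In the same selection Mrc1 was at 0.99, Chil3 at 2.47, Retnla at -1.90 and Lyve1 at 2.88, 0 pairs lay above and 1 below the expectation, and 87.5% of KO cells held 2 or more genes. That selection has 107 KO cells before thinning, and pairs with under 3 cells expected in either library were not counted. With the C1q range alone the ratios were 1.09 for Arg1, 0.66 for Mrc1, 1.44 for Chil3, 0.049 for Trem2 and 2.45 for Lyve1, and 68.6% of WT cells held 2 or more genes. With all Tyrobp-positive cells they were 0.57 for Mrc1, 1.07 for Chil3, -1.24 for Retnla and 0.046 for Trem2, and 52.4% of WT and 64.9% of KO cells held 2 or more. With at least 3 Tyrobp UMIs Chil3 was at 1.08 and Retnla at -0.76. Thinning to 1000 UMIs gave 1 pair above, Mrc1 with Lyve1, and 4 below, with 25.5% and 48.6% of cells at 2 or more genes. None of the 3 reported pairs above was among them: Arg1 with Retnla was at 2.29 in WT and 1.16 in KO, and Cd163 with Lyve1 (7.37 and 3.06) and Retnla with Cd163 (2.61 and 1.79) had under 3 cells expected in at least 1 library. No thinning gave 9 pairs above and 4 below, with 43.1% and 57.1%. For none of these shifts was the cause tested.

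Further alternatives were chosen after seeing the data. KO cells with Y-linked RNA gave 1.48 for Arg1, 1.11 for Chil3, -0.75 for Retnla, 2.46 for Cd163 and 3.03 for Lyve1. The C1q range without cells with Lyve1 or Cd163 gave 0.73 for Arg1, 0.26 for Mrc1, 1.93 for Chil3, -0.75 for Retnla and 0.023 for Trem2. Without the 5 highest cells Retnla was at -1.69. Nos2 had no ratio in 5 settings, with at most 3 UMIs in each library. Removing the 14 WT and 4 KO myeloid cells that were called doublets, and 15% mitochondrial UMIs in place of 7.5%, moved no KO/WT ratio beyond its interval. Without the called doublets 2 pairs lay above expectation in place of 3.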
